A study of Drosophila melanogaster with 3 samples.

Results

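The 10 genes that encode the subunits of the nicotinic acetylcholine receptor in Drosophila melanogaster, nAChRalpha1 to nAChRalpha7 and nAChRbeta1 to nAChRbeta3, were taken by name from the 17824 genes of the deposited single-cell count tables, and all 10 were present. They were followed in 3 types of visual projection neuron, LPLC2, LPLC1 and LC4, at 48, 72 and 96 h after puparium formation (APF), the period in which these neurons build and then refine their synapses. The LPLC2 driver was R19G02-p65.AD with R75G12-GAL4.DBD, the LPLC1 driver was R64G09-p65.AD with R37H04-GAL4.DBD, and the LC4 driver was R47H03-p65.AD with 72E01-GAL4.DBD. All animals also carried the nuclear reporter UAS-His2A-GFP, and each cross received the third chromosome of a different inbred line, called its strain here, of the Drosophila Genetic Reference Panel (DGRP). Brains of all crosses of a stage were dissociated together, GFP-positive cells were sorted, and 1 droplet library was made per stage on 1 lane. Stage and lane therefore cannot be told apart. The animals of a cross were pooled. Cells were assigned by the authors to a strain from their transcribed variants and to a type by clustering these same cells. The cross (type, stage and strain) was used as the biological replicate. There were 6 crosses per type and stage, and 4 for LC4 at 72 and 96 h. The strains were not the same at each stage. Strain 555 occurred at 48 h only, and strain 320 at 72 and 96 h only (in LPLC2 and LPLC1), so strain partly goes with stage.

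A nicotinic receptor is a cation channel made of 5 subunits that opens when acetylcholine binds, and in the insect brain, where acetylcholine is the main fast excitatory transmitter, it carries most fast excitation. The alpha subunits hold the paired cysteines of the acetylcholine-binding loop, and the beta subunits lack them. nAChRalpha5, nAChRalpha6 and nAChRalpha7 form a branch of the family that resembles the vertebrate alpha7 subunit, nAChRalpha6 is the target of the insecticide spinosad, and nAChRbeta3 is a divergent subunit. LPLC2, LPLC1 and LC4 respond to looming or moving objects, and LPLC2 and LC4 contact the giant fibre, the descending neuron of the escape jump. nAChRalpha7 is known for its requirement in the giant fibre escape response. The dendrites of LPLC2 receive input from motion-detecting neurons of the lobula plate that are themselves cholinergic.

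The tables held 5674 cells annotated as LPLC2, LPLC1 or LC4. A cross comprised 12 to 364 cells and 253805 to 7041162 unique molecular identifiers (UMIs), and the median depth of a cell lay between 16775 and 29763.5 UMIs over the 9 groups of type and stage. The types carried their markers: kn, the transcription factor that marks LC4, had a UMI in at least 98.15% of LC4 cells thinned to 10000 UMIs and in at most 3.065% of LPLC2 or LPLC1 cells. Summed markers of photoreceptors, haemocytes and muscle stayed at or under 0.15 UMIs per 10000 (TP10K) in every cross, and the summed glial list lay between 0.16 and 2.21 TP10K and was highest in LPLC2 at 48 h. The smallest crosses were strain 555 and strain 399 of LC4 at 48 h (12 and 14 cells) and strain 805 of LPLC1 at 96 h (14 cells). Final barcodes shared between libraries numbered 2 (48 and 72 h), 1 (48 and 96 h) and 5 (72 and 96 h).

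In the dm6 genome the 10 genes sit on 3 chromosomes. nAChRalpha1 (FBgn0000036, chr3R:24393896-24457157), nAChRalpha2 (FBgn0000039, chr3R:24485428-24491147) and nAChRbeta2 (FBgn0004118, chr3R:24509228-24515106) are neighbours on 3R, and nAChRalpha4 (FBgn0266347, chr3L:23206669-23287448) and nAChRbeta1 (FBgn0000038, chr3L:4429349-4435993) are on 3L, so these 5 lie on the chromosome that differed between strains. nAChRalpha5 (FBgn0028875, chr2L:14040170-14094401), nAChRalpha6 (FBgn0032151, chr2L:9793317-9886250) and nAChRbeta3 (FBgn0031261, chr2L:545129-547096) are on 2L, and nAChRalpha3 (FBgn0015519, chrX:8276200-8367169) and nAChRalpha7 (FBgn0086778, chrX:19327075-19348447) are on X. On their own strand, nAChRalpha1 overlaps lncRNA:CR45950, nAChRalpha2 hosts mir-1017, nAChRalpha3 overlaps lncRNA:CR43695 and nAChRalpha5 overlaps NimC4, and reads of such pairs could have been assigned to either gene.

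Each type held its own mixture of the subunits, and the mixture changed between stages. In LC4, nAChRalpha5 and nAChRalpha7 together made up 81.4% ± 0.98 of all subunit UMIs at 48 h (SD, n = 6), 78.7% ± 1.29 at 72 h and 76.3% ± 0.74 at 96 h (n = 4 each). In LPLC1 the same pair held 51.4% ± 2.85, 44.0% ± 1.81 and 32.0% ± 4.47 at 48, 72 and 96 h (n = 6 each), and in LPLC2 41.2% ± 1.59, 38.6% ± 2.83 and 19.8% ± 1.60 (n = 6 each). By 96 h the most abundant subunit was nAChRbeta1 in LPLC2 (27.7%), nAChRalpha6 in LPLC1 (26.4%) and nAChRalpha5 in LC4 (47.0%). These are shares of 3′ UMIs. Whether intronic reads were counted is not given, and a dependence of the shares on gene length was not tested. The efficiency with which each transcript is captured is also unknown, so the shares order UMIs and not proteins. The summed level of the 10 subunits was highest at 72 h in each type, at 124 ± 5.5 TP10K in LPLC2 and 145 ± 8.6 in LPLC1 (n = 6 each) and 212 ± 12.7 in LC4 (n = 4), and it was 75.3 ± 4.2, 94.6 ± 7.1 and 164 ± 12.1 TP10K at 96 h.

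**Figure D1:**
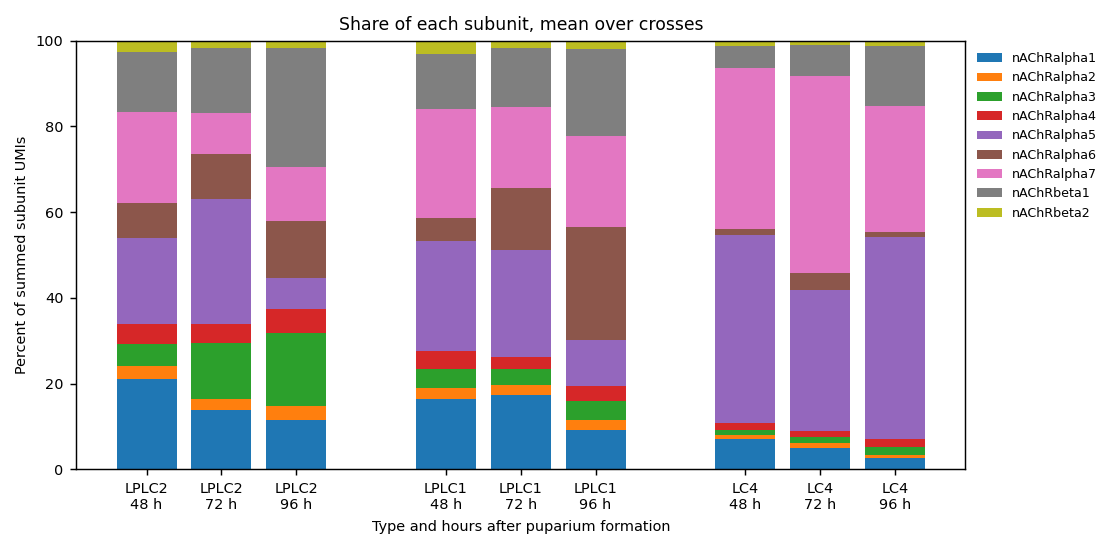
Stacked bars give the mean share of each subunit in the summed subunit UMIs (percent, mean over 6 crosses, or 4 for LC4 at 72 and 96 h) for each type and stage. In LC4 nAChRalpha5 and nAChRalpha7 fill 81.4%, 78.7% and 76.3% of the bars at 48, 72 and 96 h, and in LPLC2 at 96 h they fill 19.8%; nAChRbeta3 is too rare to be drawn.

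Changes between stages were tested with edgeR's quasi-likelihood test on summed UMIs per cross, with Benjamini-Hochberg adjustment over the 7011 genes that passed a filter on low counts. All 10 subunits passed it, but nAChRbeta3 did so only through LPLC2 crosses. Its calls, which enter the counts of subunits below, are not independent of that selection. The median gene hardly moved in this scaling (log2 fold changes between -0.06 and 0.04), whereas with library totals alone the median gene at 96 over 72 h APF stood at 0.19 in LPLC2 and 0.18 in LPLC1, so small changes at that step depend on the scaling. At 72 over 48 h, 6 subunits were higher and 3 lower in LPLC2, where 36.2% of all genes tested were called higher and 35.8% lower. In LPLC1 8 were higher and 0 lower (all genes 32.9% and 30.7%), and in LC4 4 were higher and 2 lower (31.2% and 30.8%). At 96 over 72 h the direction turned. In LPLC2 1, nAChRbeta3, was higher and 8 were lower (all genes 28.8% and 25.7%), in LPLC1 0 were higher and 8 lower (22.1% and 26.7%), and in LC4 1 was higher and 4 were lower (20.4% and 25.6%). The crosses of the 2 stages did not overlap for 7 and then 5 subunits in LPLC2 (all genes 53.2% and 32.1%), for 5 and 4 in LPLC1 (41.7% and 26.2%), and for 3 and 5 in LC4 (41.3% and 42%).

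**Figure D2:**
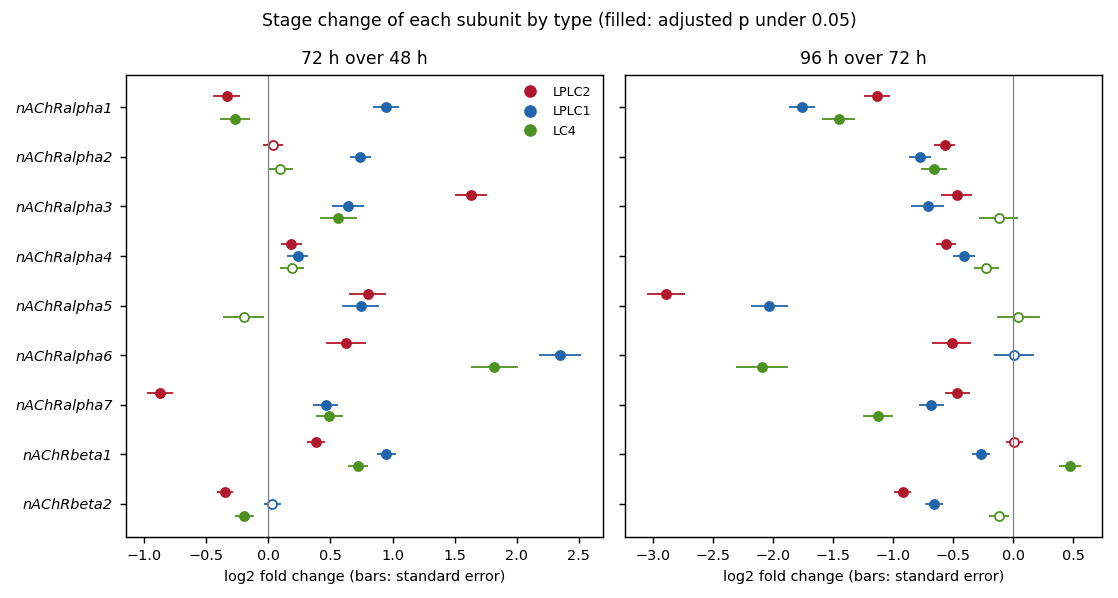
Points give the log2 fold change of 9 subunits at 72 over 48 h APF (left) and 96 over 72 h APF (right) in LPLC2, LPLC1 and LC4, bars the standard error, and filled points an adjusted p under 0.05. nAChRalpha6 rose by 2.35 in LPLC1 and 1.82 in LC4 in the first step, and nAChRalpha5 fell by 2.89 in LPLC2 and 2.03 in LPLC1 in the second, while in LC4 it did not pass the test in either step.

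nAChRalpha5 fell in LPLC2 and LPLC1 between 72 and 96 h and was called changed at neither step in LC4. It belongs to the branch of the family that resembles vertebrate alpha7. In LPLC2 the lowest, median and highest of the 6 crosses were 18.6, 20.8 and 26.1 TP10K at 48 h, 28.6, 36.4 and 41.2 at 72 h, and 4.19, 5.23 and 7.30 at 96 h. The crosses did not overlap between consecutive stages, with log2 fold changes of 0.80 ± 0.15 at 72 over 48 h and -2.89 ± 0.16 at 96 over 72 h (SE; edgeR's quasi-likelihood test, Benjamini-Hochberg adjusted p = 4.3e-06 and 1.2e-21). In LPLC1 they were 15.3, 20.4 and 40.7 TP10K at 48 h, 34.1, 35.9 and 39.97 at 72 h, and 7.29, 10.7 and 12.0 at 96 h. The 96 h crosses of LPLC1 all lay below the 72 h crosses (-2.03 ± 0.16, adjusted p = 3.9e-16), and 1 cross at 48 h, strain 555, reached the 72 h range. In LC4 the level was 74.8, 86.7 and 90.6 TP10K (lowest, median, highest) at 48 h, 64.4, 69.7, 72.2 and 72.2 in the 4 crosses at 72 h, and 84.1, 85.0, 68.1 and 72.6 at 96 h. Neither step was called in LC4 (-0.20 ± 0.16 and 0.04 ± 0.18, adjusted p = 0.30 and 0.87), although its 72 h crosses all lay below its 48 h crosses. The change at 96 h was lower in LPLC2 than in LC4, with a difference of -2.94 ± 0.24 on the log2 scale (adjusted p = 6.1e-14). For LPLC1 minus LC4 the difference was -2.07 ± 0.24 (adjusted p = 3.1e-09).

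nAChRalpha6, the spinosad target, was detected at 48 h in each type and rose to 72 h, by more in LPLC1 and LC4 than in LPLC2. In LPLC1 the lowest, median and highest crosses were 3.87, 4.46 and 5.32 TP10K at 48 h, 16.7, 23.0 and 23.6 at 72 h, and 21.1, 25.0 and 31.4 at 96 h. All 72 h crosses stood above all 48 h crosses (log2 fold change 2.35 ± 0.17, edgeR's quasi-likelihood test, adjusted p = 3.4e-17), and the 96 h crosses overlapped the 72 h crosses (0.01 ± 0.16, adjusted p = 0.99). In LC4 it was 1.49, 2.39 and 4.86 TP10K at 48 h (lowest, median, highest), 10.4, 8.01, 6.48 and 8.23 in the 4 crosses at 72 h, and 1.93, 2.91, 1.59 and 1.88 at 96 h. The LC4 rise (1.82 ± 0.19, adjusted p = 8.4e-12) was thus followed by a fall (-2.09 ± 0.22, adjusted p = 1.1e-11). The crosses of consecutive stages did not overlap. In LPLC2 the crosses ranged from 7.56 to 9.56 TP10K at 48 h, 11.3 to 14.4 at 72 h and 7.47 to 12.5 at 96 h, a smaller rise (0.63 ± 0.16, adjusted p = 0.00062) and a smaller fall (-0.51 ± 0.16, adjusted p = 0.0069). The first step differed by -1.72 ± 0.23 for LPLC2 minus LPLC1 (adjusted p = 7.0e-08). The second differed by 2.10 ± 0.27 for LPLC1 minus LC4 (adjusted p = 5.2e-08).

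nAChRalpha7 moved in opposite directions in the types between 48 and 72 h. In LPLC2 the crosses had a lowest, median and highest level of 20.1, 23.0 and 25.0 TP10K at 48 h, 11.1, 11.8 and 12.9 at 72 h, and 8.43, 9.46 and 10.9 at 96 h. The level fell in both steps without overlap (-0.87 ± 0.10 and -0.47 ± 0.10, edgeR's quasi-likelihood test, adjusted p = 9.4e-11 and 0.00013). In LPLC1 it was 21.1, 22.0 and 24.2 TP10K at 48 h, 24.4, 28.2 and 31.2 at 72 h, and 15.7, 18.9 and 29.2 at 96 h. It rose (0.46 ± 0.10, adjusted p = 8.1e-05) and then fell (-0.68 ± 0.10, adjusted p = 1.7e-07), and strain 399 at 96 h lay inside the 72 h range. In LC4 it was 57.9, 69.6 and 102 TP10K at 48 h, 89.97, 87.8, 108 and 102 in the 4 crosses at 72 h, and 48.7, 48.3, 46.5 and 48.7 at 96 h. The LC4 rise (0.49 ± 0.11, adjusted p = 0.00015) overlapped through strain 399 at 48 h, which had 14 cells, and the fall did not overlap (-1.12 ± 0.12, adjusted p = 8.1e-11). The first step differed by -1.34 ± 0.14 for LPLC2 minus LPLC1 and by -1.36 ± 0.15 for LPLC2 minus LC4 (adjusted p = 1.5e-10 and 2.2e-10).

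**Figure D3:**
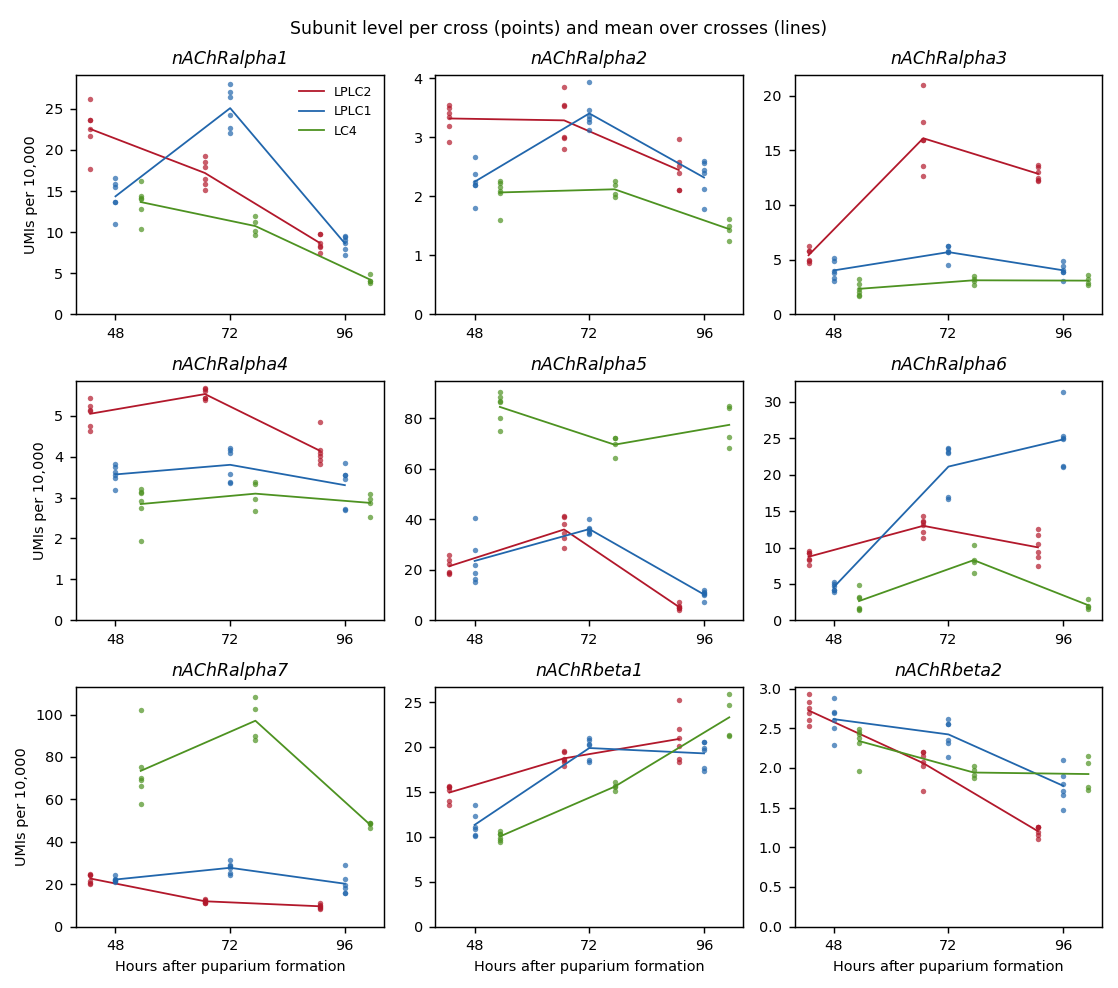
Each panel shows 1 subunit, with the level of every cross in UMIs per 10000 (points) and the mean over crosses (lines) at 48, 72 and 96 h APF, for LPLC2, LPLC1 and LC4 from left to right within a stage. The vertical axes start at 0 and differ between panels. nAChRalpha3 at 72 and 96 h is set apart in LPLC2 (12.2 to 21.0), and nAChRalpha5 and nAChRalpha7 are set apart in LC4 (46.5 to 108).

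nAChRalpha3 rose in LPLC2 to 72 h, and all its 96 h crosses were still above the 48 h crosses. Its lowest, median and highest crosses in LPLC2 were 4.68, 5.37 and 6.27 TP10K at 48 h, 12.7, 15.9 and 21.0 at 72 h, and 12.2, 12.8 and 13.7 at 96 h. All 72 h crosses lay above all 48 h crosses (log2 fold change 1.63 ± 0.13, edgeR's quasi-likelihood test, adjusted p = 4.1e-16), and the small fall at 96 h overlapped (-0.47 ± 0.13, adjusted p = 0.0015). In LPLC1 the means were 4.01 ± 0.85, 5.69 ± 0.65 and 4.02 ± 0.62 TP10K at 48, 72 and 96 h (SD, n = 6 each), and in LC4 2.33 ± 0.60 (n = 6), 3.11 ± 0.35 and 3.08 ± 0.42 (n = 4 each). The rise to 72 h was larger in LPLC2 than in LPLC1 by 0.99 ± 0.18 and than in LC4 by 1.07 ± 0.20 (adjusted p = 4.2e-05 and 2.6e-05).

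nAChRalpha1 and nAChRalpha2, neighbours on 3R, both rose in LPLC1 to 72 h and fell in all 3 types to 96 h. nAChRalpha1 in LPLC1 had crosses of 10.96, 14.6 and 16.5 TP10K (lowest, median, highest) at 48 h, 22.1, 25.3 and 28.0 at 72 h, and 7.22, 8.85 and 9.52 at 96 h, with no overlap between any 2 consecutive stages. Its log2 fold change in LPLC1 was 0.95 ± 0.11 and then -1.76 ± 0.11 (edgeR's quasi-likelihood test, adjusted p = 5.6e-11 and 2.8e-19). In LPLC2 it was 17.7, 23.1 and 26.2 TP10K at 48 h, 15.1, 17.2 and 19.3 at 72 h, and 7.43, 8.50 and 9.80 at 96 h. The first step differed by -1.28 ± 0.15 for LPLC2 minus LPLC1 (adjusted p = 2.0e-09). In LC4 nAChRalpha1 fell at the second step (-1.45 ± 0.14, adjusted p = 4.4e-13), to 4.11, 4.91, 4.10 and 3.79 TP10K at 96 h, against 9.60, 11.2, 12.0 and 10.1 at 72 h. Its lower level at 72 over 48 h in LC4 (-0.27 ± 0.12, adjusted p = 0.049) was no longer called without strain 399, 535 or 730 (adjusted p between 0.052 and 0.25). The call was also lost with no filter on low counts (adjusted p = 0.16). nAChRalpha2 was lower in level, with means of 3.32, 3.29 and 2.45 TP10K at 48, 72 and 96 h in LPLC2, 2.25, 3.41 and 2.32 in LPLC1, and 2.07, 2.12 and 1.44 in LC4. The first step of nAChRalpha2 was called in LPLC1 alone (0.74 ± 0.09, adjusted p = 1.3e-10). The difference was -0.70 ± 0.12 for LPLC2 minus LPLC1 and 0.65 ± 0.13 for LPLC1 minus LC4 (adjusted p = 1.1e-05 and 0.00017). The second step of nAChRalpha2 was called in each type, with log2 fold changes of -0.57 ± 0.09, -0.78 ± 0.09 and -0.66 ± 0.11 in LPLC2, LPLC1 and LC4.

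nAChRalpha4 had group means between 2.84 and 5.52 TP10K. Its means were 5.04, 5.52 and 4.14 TP10K at 48, 72 and 96 h in LPLC2, 3.56, 3.80 and 3.30 in LPLC1, and 2.84, 3.09 and 2.87 in LC4. The rises to 72 h in LPLC2 and LPLC1 were 0.19 and 0.24 on the log2 scale (edgeR's quasi-likelihood test, adjusted p = 0.04 and 0.013), and neither call was firm. The LPLC2 call was lost with DESeq2 size factors, library totals alone, no filter, the stated cell filter and thinned cells (adjusted p between 0.05 and 0.13), and without strain 399, 535, 730, 799 or 805 (between 0.056 and 0.16). The LPLC1 call was lost with library totals alone, no filter, the stated cell filter and thinned cells (between 0.055 and 0.30), and without strain 535, 730, 799 or 805 (between 0.052 and 0.15). The fall to 96 h in LPLC2 did not overlap (-0.56 ± 0.08, adjusted p = 1.7e-07). In LPLC1 the call of a fall to 96 h was lost with library totals alone (-0.19, adjusted p = 0.060).

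nAChRbeta1, a beta subunit that assembles with several alpha subunits, rose in all 3 types at the first step and rose again in LC4. In LC4 its crosses were 9.47, 10.0 and 10.6 TP10K at 48 h (lowest, median, highest), 15.6, 15.1, 15.6 and 16.1 at 72 h, and 24.7, 25.9, 21.4 and 21.3 at 96 h, with no overlap between stages (0.72 ± 0.08 and 0.47 ± 0.09, edgeR's quasi-likelihood test, adjusted p = 6.9e-11 and 1.6e-05). In LPLC1 the means were 11.3 ± 1.3, 19.9 ± 1.1 and 19.3 ± 1.4 TP10K, and in LPLC2 14.9 ± 0.9, 18.7 ± 0.6 and 20.9 ± 2.5 (SD, n = 6 each). The first step was called in both (0.95 ± 0.07 in LPLC1 and 0.38 ± 0.07 in LPLC2, adjusted p = 2.6e-16 and 6.4e-06). The second was 0.01 ± 0.07 in LPLC2 (adjusted p = 0.94) and -0.27 ± 0.07 in LPLC1 (adjusted p = 0.0021), and with library totals alone the LPLC1 value was -0.04 (adjusted p = 0.62). The second step differed by -0.46 ± 0.11 for LPLC2 minus LC4 and by -0.74 ± 0.12 for LPLC1 minus LC4 (adjusted p = 0.0016 and 3.0e-06).

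nAChRbeta2, which neighbours nAChRalpha1 and nAChRalpha2 on 3R, fell at both steps in LPLC2. Its lowest, median and highest crosses in LPLC2 were 2.53, 2.72 and 2.93 TP10K at 48 h, 1.71, 2.11 and 2.20 at 72 h, and 1.11, 1.22 and 1.26 at 96 h, and no cross overlapped between consecutive stages (-0.35 ± 0.07 and -0.92 ± 0.07, edgeR's quasi-likelihood test, adjusted p = 7.1e-06 and 7.2e-16). In LPLC1 the fall came at the second step (-0.66 ± 0.07, adjusted p = 1.2e-10), with means of 2.61, 2.42 and 1.77 TP10K at 48, 72 and 96 h. In LC4 the means were 2.34, 1.94 and 1.92 TP10K. The LC4 decline to 72 h (-0.19 ± 0.08, adjusted p = 0.026) was lost when strain 399, 535 or 799 was left out (adjusted p between 0.053 and 0.11). It was also lost with no filter on low counts (adjusted p = 0.28).

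Over all subunits, the first step was called different between LPLC2 and LPLC1 for 7 of 10 (background 15.9% of genes tested), between LPLC2 and LC4 for 6 (32.3%) and between LPLC1 and LC4 for 3 (22.3%). The 6 include nAChRbeta3, which passed the filter on low counts only through LPLC2 crosses and lost its call without strain 805. For the second step the counts were 2 (11.2%), 5 (26.3%) and 6 (16.6%). These comparisons share crosses and are not independent of each other.

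nAChRbeta3, the divergent subunit, was not detected in LPLC2 at 48 h and was found in a small share of LPLC2 cells at 72 and 96 h. No nAChRbeta3 UMI was found in any of the 6 LPLC2 crosses at 48 h (0 of 1442 cells, which allows a share of cells with a UMI of up to 0.208% at this depth and sets no limit on cells that express the gene). At 72 h the crosses had 0.0148, 0.0257, 0.032, 0.033, 0.0515 and 0.0701 TP10K, and at 96 h 0.0423, 0.0478, 0.0988, 0.1003, 0.110 and 0.114. All 72 h and all 96 h crosses thus stood above 0. Against the level that 3 UMIs over the whole 48 h group would give, the pooled level was at least 34.1-fold higher at 72 h (78 UMIs) and at least 74.0-fold higher at 96 h (67 UMIs). The rise between 72 and 96 h (log2 fold change 1.0 ± 0.35, edgeR's quasi-likelihood test, adjusted p = 0.013) overlapped between crosses, and without strain 730 or strain 399 it was 0.71 or 0.92 (adjusted p = 0.10 and 0.053). In LPLC1 the highest cross of any stage was 0.0353 TP10K, and in LC4 0.0124.

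By thinned cells, a UMI of nAChRbeta3 was found in 35 of 851 LPLC2 cells at 72 h (4.11%, 95% exact binomial interval 2.88 to 5.67%) and in 30 of 393 at 96 h (7.63%, 5.21 to 10.7%). The unthinned shares were 6.04% and 10.3%. kn, which LPLC2 should lack, had a UMI in 2.47% and 3.05% of the same thinned LPLC2 cells (3.52% and 3.38% unthinned, at median depths of 20330 and 16775 UMIs). nAChRbeta3 itself was found in 0.178% and 1.06% of thinned LPLC1 cells and in none of 540 and 186 thinned LC4 cells at 72 and 96 h (which allows shares of cells with a UMI of up to 0.556% and 1.61% at this depth). The nAChRbeta3 share of LPLC2 was above that of kn at both stages, although the intervals of the 2 genes overlapped, and at least 1 UMI was found in every cross. Between types of the same lane, the log2 fold change of nAChRbeta3 for LPLC2 over LPLC1 was 3.84 at 72 h and 3.38 at 96 h. LPLC1 held 3 UMIs of it at each of these stages. The gene passed the filter on low counts only through LPLC2 crosses, so these values repeat that selection and no p-value is given. Intervals cover counting error only, and cells are not replicates.

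The other 9 subunits were detected in most cells of every type, and the median cell thinned to 10000 UMIs held transcripts of 9 subunits, or 8 in LC4 at 48 and 96 h. At least 8 subunits were found in 98.7%, 98.4% and 88.3% of thinned LPLC2 cells at 48, 72 and 96 h, in 94.96%, 98.0% and 87.0% of LPLC1 cells, and in 76.8%, 93.1% and 72.6% of LC4 cells. The exceptions to a near-full share were low genes, where depth sets the share, and nAChRalpha6 in LC4. nAChRalpha6 had a UMI in 64.4% of thinned LC4 cells at 48 h (222 of 345), 93.7% at 72 h (506 of 540) and 66.7% at 96 h (124 of 186), and the unthinned shares were 77.1%, 98.7% and 76.9%. nAChRalpha5 was found in 100% of thinned LPLC2 cells at 48 and 72 h and in 92.9% at 96 h, and nAChRbeta2 in 91.3%, 85.0% and 68.7%.

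Side by side at 1 stage, on 1 lane, the types differed most in nAChRalpha5, nAChRalpha7, nAChRalpha6 and nAChRalpha3, apart from the rare nAChRbeta3. Since the authors named the types by clustering these same cells, these tests describe the size of the difference and are not independent of the naming. At 48 h 6 of 10 subunits were higher and 0 lower in LPLC2 than in LPLC1 (all genes 15.4% higher and 18.2% lower). At 72 h 3 were higher and 4 lower (16.5% and 18.9%), and at 96 h 3 were higher and 4 lower (16.2% and 10.2%). Against LC4, LPLC2 was higher in 7 and lower in 2 at 48 h (25.6% and 26.8%), higher in 7 and lower in 2 at 72 h (28.3% and 30.4%), and higher in 6 and lower in 4 at 96 h (27.1% and 22.5%). Small differences from LC4 were lost without 1 strain or more, namely nAChRbeta2 at 48 h and nAChRbeta1 at 72 h for LPLC2, and nAChRalpha4 at 48 and 72 h and nAChRbeta2 at 96 h for LPLC1. LPLC1 was higher than LC4 in 3 and lower in 2 at 48 h (18.6% and 18.9%), higher in 7 and lower in 2 at 72 h (25.1% and 25%), and higher in 3 and lower in 4 at 96 h (18.4% and 19.4%).

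nAChRalpha7 averaged 11.9 ± 0.7 TP10K in LPLC2 at 72 h, against 97.1 ± 9.8 in LC4 (SD, n = 6 and 4; log2 fold change -3.10 ± 0.11, edgeR's quasi-likelihood test, adjusted p = 3.5e-29). nAChRalpha5 averaged 5.38 ± 1.06 TP10K in LPLC2 at 96 h, against 77.4 ± 8.4 in LC4 (-3.96 ± 0.17, adjusted p = 7.1e-26). Both were lower in LPLC2 and in LPLC1 than in LC4 at each stage, without overlap of crosses. nAChRalpha6 averaged 24.8 ± 3.8 TP10K in LPLC1 at 96 h, against 2.08 ± 0.57 in LC4 (3.44 ± 0.22, adjusted p = 3.5e-19), and 10.0 ± 1.9 in LPLC2 at 96 h, against 24.8 in LPLC1 (-1.29 ± 0.17, adjusted p = 1.2e-08). nAChRalpha3 averaged 12.9 ± 0.6 TP10K in LPLC2 at 96 h, against 4.02 ± 0.62 in LPLC1 (1.68 ± 0.14, adjusted p = 7.6e-15) and 3.08 ± 0.42 in LC4 (1.95 ± 0.16, adjusted p = 2.1e-15). At 48 h no difference was called between LPLC2 and LPLC1 in nAChRalpha5 (21.5 ± 3.2 and 23.5 ± 9.5 TP10K, -0.12 ± 0.15, adjusted p = 0.56) or in nAChRalpha7 (22.6 ± 2.1 and 22.2 ± 1.1, 0.05 ± 0.10, adjusted p = 0.73).

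Cells of 1 type also differ along a molecular gradient, the first principal component within a type and stage, which in LPLC2 follows dpr13 and in LPLC1 follows DIP-kappa, both encoding recognition proteins of the immunoglobulin superfamily. The cells of each cross were ranked on this axis, with scores made without the tested gene and with loadings from the other crosses, and divided into 3 equal groups. The high end was compared with the low end with the cross as a block, in 6 crosses per stage, or 5 for LPLC1 at 96 h. The axis was made anew in each type and stage. A change of a subunit's gradient between stages therefore cannot be told apart from a change of the axis. At 48, 72 and 96 h the log2 fold change between the ends was 2.60, 1.47 and 2.45 for dpr13 in LPLC2. For DIP-kappa in LPLC1 it was 5.48, 5.82 and 6.52. LC4 was left out because the study ties its first component to the transcript number per cell. The scores used here also went with UMIs per cell in some crosses. The Spearman correlation within a cross had medians of 0.13, 0.23 and -0.09 in LPLC2 at 48, 72 and 96 h, with crosses at 72 h reaching 0.41, and in LPLC1 single crosses lay at 0.38 at 72 h and -0.40 at 96 h. With the counts thinned to 10000 UMIs per cell and positions kept, each called subunit of LPLC2 kept its call, whereas in LPLC1 nAChRalpha1 and nAChRbeta1 at 48 h, nAChRalpha4 and nAChRbeta1 at 72 h and nAChRalpha5 at 96 h lost theirs. nAChRbeta3 did not pass the filter on low counts here and is given apart. In LPLC2 at 48 h, 4 of the 9 subunits tested were higher and 2 lower at the high end (all genes 14.1% higher and 16.6% lower). At 72 h 8 were higher and 1 lower (23.8% and 27.9%), and at 96 h again 8 were higher and 1 lower (26.4% and 28.3%).

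**Figure D4:**
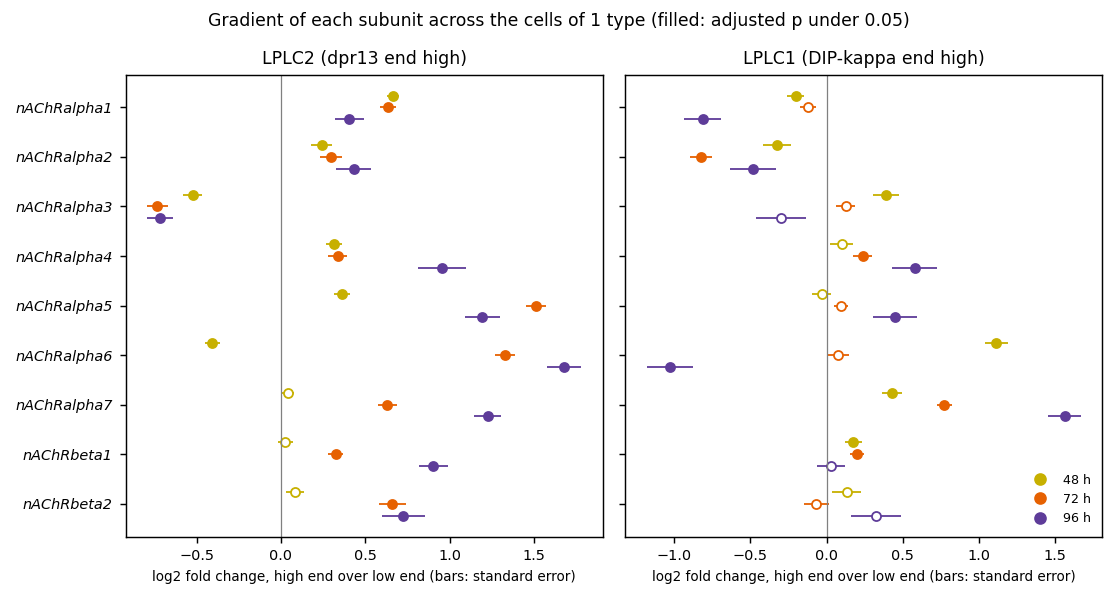
Points give the log2 fold change of 9 subunits between the high and the low end of the gradient in LPLC2 (left) and LPLC1 (right) at 48, 72 and 96 h APF, bars the standard error, and filled points an adjusted p under 0.05. In LPLC2 all subunits but nAChRalpha3 lie above 0 at 72 and 96 h, and nAChRalpha6 is at -0.41, 1.33 and 1.68 at 48, 72 and 96 h. In LPLC1 nAChRalpha6 is at 1.11, 0.07 and -1.03.

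Relative to the axis of each stage, nAChRalpha6 turned its direction across LPLC2 cells. At 48 h the high end had 7.43 ± 0.79 TP10K and the low end 9.83 ± 0.99 (SD, n = 6; log2 fold change -0.41 ± 0.05, edgeR's quasi-likelihood test, adjusted p = 2.1e-07), and the high end was below the low end in 6 of 6 crosses. At 72 h the 6 crosses had 17.1 to 22.7 TP10K at the high end, against 7.30 to 8.23 at the low end, and at 96 h 14.5 to 20.7 against 3.74 to 8.19. The ends did not overlap at either stage (1.33 ± 0.06 and 1.68 ± 0.10, adjusted p = 8.0e-14 and 4.9e-14). The gradient changed by 1.73 ± 0.10 at 72 over 48 h (adjusted p = 7.9e-16), and 5 of the subunits had a changed gradient at that step, where 27.5% of genes were called. At 96 over 72 h there were 4 (18.8%), of which the call of nAChRalpha6 was lost without strain 399, 535, 799 or 805. The low end held 7.80 TP10K of nAChRalpha6 at 72 h and 9.83 at 48 h, and the middle group 9.70 and 9.04, so the higher mean at 72 h lay in the high group.

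nAChRalpha5 was also higher at the high end of LPLC2 at each stage. At 72 h the high end had 45.4 to 61.9 TP10K over the 6 crosses, against 13.7 to 21.1 at the low end (log2 fold change 1.51 ± 0.06, edgeR's quasi-likelihood test, adjusted p = 9.6e-15), and at 96 h 5.78 to 10.2 against 3.10 to 3.64 (1.20 ± 0.10, adjusted p = 1.2e-10). At 48 h the difference was smaller (24.7 ± 5.4 at the high end and 19.0 ± 2.0 at the low end, 0.36 ± 0.05), and the gradient grew by 1.14 ± 0.10 between 48 and 72 h (adjusted p = 8.2e-12). The low end held 18.2 TP10K at 72 h and 19.0 at 48 h, and the change of the gradient at 96 over 72 h was not called (-0.31 ± 0.12, adjusted p = 0.064). nAChRalpha7 was level at 48 h (0.04 ± 0.04, adjusted p = 0.43) and graded at 72 h (0.63 ± 0.06) and 96 h (1.23 ± 0.08), with 14.4 ± 1.2 TP10K at the high end and 6.09 ± 0.66 at the low end at 96 h. nAChRbeta1 likewise went through 0.03 ± 0.04, 0.33 ± 0.04 and 0.90 ± 0.08 at 48, 72 and 96 h.

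nAChRalpha3 was lower at the high end of LPLC2 at all 3 stages. The high end had 4.64 ± 0.66, 12.2 ± 2.2 and 9.69 ± 0.76 TP10K at 48, 72 and 96 h, and the low end 6.70 ± 0.69, 19.5 ± 3.3 and 15.8 ± 1.6 (SD, n = 6 each). The high end was lower in 6 of 6 crosses at each stage (log2 fold changes -0.52 ± 0.06, -0.73 ± 0.06 and -0.72 ± 0.08, edgeR's quasi-likelihood test, adjusted p = 6.1e-08, 1.2e-09 and 5.6e-09). nAChRalpha1 was higher at the high end at all 3 stages (0.66 ± 0.04, 0.64 ± 0.05 and 0.41 ± 0.09), and nAChRbeta2 at 72 and 96 h (0.66 ± 0.08 and 0.73 ± 0.13). The 96 h call of nAChRalpha1 was lost with 2 equal groups of cells in place of 3 (0.18, adjusted p = 0.066). nAChRalpha4 had 5.35 ± 0.81 TP10K at the high end and 2.80 ± 0.88 at the low end at 96 h (0.96 ± 0.14, adjusted p = 1.9e-06), and its gradient grew by 0.63 ± 0.15 between 72 and 96 h (adjusted p = 0.0018). The axis is less firm at 48 h: without strain 730 the fold changes of all genes correlated with the full ones at r = 0.79, and nAChRalpha4 read -0.18 in place of 0.31. The call of nAChRalpha2 at 48 h (0.24 ± 0.06) was lost with 1000 variable genes and without strain 399, 535, 555 or 799, with values between 0.02 and 0.16.

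All nAChRbeta3 UMIs of LPLC2 at 72 and 96 h lay in the low and middle groups, on the side where nAChRalpha3 was higher. At 72 h the low, middle and high groups held 68, 10 and 0 UMIs, and at 96 h 60, 7 and 0. The high end was at 0 in all 6 crosses, against a low end of 0.0458 to 0.202 TP10K at 72 h and 0.113 to 0.313 at 96 h. The ends did not overlap at either stage. Against the level of 3 UMIs in the high group, the low group was at least 26.3-fold higher at 72 h and at least 19.4-fold higher at 96 h. With no filter on low counts, the log2 fold change of the high over the low end was -6.68 ± 0.73 at 72 h and -6.34 ± 0.76 at 96 h (SE). These values rest on few UMIs against 0, and the gene did not pass the filter here, so no p-value is given.

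**Figure D5:**
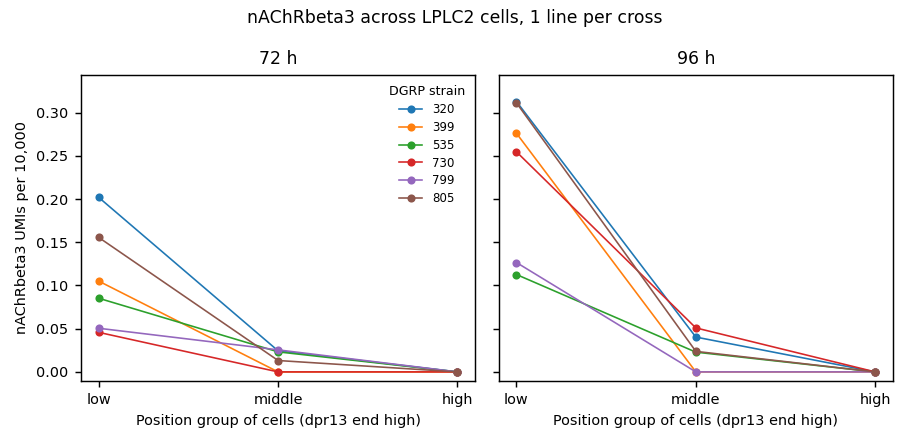
Lines give the nAChRbeta3 level (UMIs per 10000) in the low, middle and high position groups of LPLC2 cells, 1 line per cross (DGRP strain), at 72 h (left) and 96 h APF (right). Every cross lies above 0 in the low group, between 0.0458 and 0.313, and at 0 in the high group.

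In LPLC1 the gradient divided the subunits. Of 9 tested, 4 were higher and 2 lower at the high end at 48 h (all genes 10.5% and 11%), 3 higher and 1 lower at 72 h (14.5% and 16.9%), and 3 higher and 3 lower at 96 h (14.3% and 17.5%). nAChRalpha7 steepened: the high end had 24.7 ± 1.9, 36.1 ± 4.1 and 31.9 ± 6.1 TP10K at 48, 72 and 96 h, and the low end 18.8 ± 1.8, 20.9 ± 1.9 and 10.6 ± 3.0 (SD, n = 6, 6 and 5). The high end was higher in every cross (log2 fold changes 0.43 ± 0.07, 0.77 ± 0.05 and 1.56 ± 0.11, edgeR's quasi-likelihood test, adjusted p = 2.5e-05, 5.6e-12 and 9.2e-10), and the gradient grew by 0.78 ± 0.12 between 72 and 96 h (adjusted p = 8.8e-06).

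Relative to the axis of each stage, nAChRalpha6 reversed in LPLC1 too, with signs opposite to those in LPLC2, whose axis is a different one. At 48 h the 6 crosses had 5.29 to 6.93 TP10K at the high end, against 2.001 to 3.67 at the low end (1.11 ± 0.07, edgeR's quasi-likelihood test, adjusted p = 1.5e-10), and at 72 h 12.9 to 23.1 against 12.2 to 23.6, with no call between the ends (0.07 ± 0.08, adjusted p = 0.50). The middle group at 72 h, at 27.9 TP10K on average, was above both ends in each of the 6 crosses. At 96 h the 5 crosses had 5.64 to 17.5 TP10K at the high end, against 22.4 to 28.9 at the low end (-1.03 ± 0.15, adjusted p = 2.8e-05), and the middle group averaged 32.7. The gradient changed by -1.03 ± 0.16 at 72 over 48 h (adjusted p = 2.2e-05) and by -1.11 ± 0.17 at 96 over 72 h (adjusted p = 1.2e-05). Of the subunits, 3 had a changed gradient at the first step and 3 at the second, where 7.88% and 8.46% of genes were called. nAChRalpha2 was lower at the high end at each stage, most at 72 h (2.49 ± 0.24 and 4.37 ± 0.39 TP10K at the high and low ends, -0.82 ± 0.07, adjusted p = 1.2e-09), and its call at 96 h was lost without strain 399, 535 or 799 (adjusted p = 0.054, 0.089 and 0.063). The call of nAChRalpha5 at 96 h, 0.45, was lost without strain 320, 535 or 799 (adjusted p between 0.12 and 0.15). nAChRalpha1 was lower at 96 h (6.288 ± 0.84 and 10.7 ± 2.0, -0.81 ± 0.12, adjusted p = 2.5e-05), whereas its value at 48 h, -0.20, turned sign without strain 730, 799 or 805. At 48 h the calls of nAChRalpha2, nAChRalpha3 and nAChRbeta1 in LPLC1 were also each lost without 1 strain or more, and without strain 805 the fold changes of all genes correlated with the full ones at r = 0.75. At 72 h the call of nAChRalpha4 was lost without strain 320 or 805 (adjusted p = 0.083 and 0.12).

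Within a cross, the spread between cells of 1 type was measured as the variance beyond counting noise over the squared mean (excess CV2). It was taken in cells thinned to 10000 UMIs, for genes above a set minimum of mean UMIs in every cross used. Here and in the numbers of subunits per cell, crosses with few thinned cells were left out. These were strains 399 and 555 of LC4 at 48 h and strain 805 of LPLC1 at 96 h. nAChRalpha6 in LC4 was among the most spread genes at each stage, ranking 10 of 2088 at 48 h (median over crosses 1.03), 35 of 2008 at 72 h (0.65) and 7 of 1971 at 96 h (1.64). The medians over all genes were 0.093, 0.056 and 0.107. At 96 h the 4 crosses ranged from 0.19 to 2.10. The 10% of LC4 cells with most nAChRalpha6 held 40.7%, 31.8% and 48.3% of its UMIs at 48, 72 and 96 h. At 48 h, 41 of 345 thinned LC4 cells had 5 or more UMIs of nAChRalpha6 and 123 had 0, and at 72 h 328 of 540 had 5 or more and 34 had 0. The summed UMIs of salm, salr, Lim1 and Sox102F, markers of LPLC1 and LPLC2, averaged 1.05 in the cells with 5 or more and 0.17 in the cells with 0 at 48 h, 0.10 and 0.06 at 72 h, and 0.05 and 0.11 at 96 h. At 96 h these were 22 and 62 cells. UMIs of kn, the LC4 marker, averaged 10.6 and 13.3 in the same 2 sets of cells at 48 h, 4.92 and 4.56 at 72 h, and 10.6 and 8.16 at 96 h. The part of cells with markers of other types in the LC4 spread was not tested.

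In LPLC2 the spread of nAChRalpha6 ranked 424 of 2143 at 48 h, 171 of 2042 at 72 h and 122 of 2082 at 96 h (medians 0.19, 0.41 and 0.68), and nAChRalpha5 ranked 650, 243 and 235. nAChRbeta1 had a spread of 0.02, 0.04 and 0.15 in LPLC2, with ranks of 1818, 1644 and 944. It was thus among the less spread genes at 48 and 72 h and near the middle of the ranking at 96 h. The spread of nAChRalpha7 in LC4 was 0.25, 0.06 and 0.14 at 48, 72 and 96 h. Some pairs of subunits varied together between cells, but most did so little. The Spearman correlation within a cross, as a median over crosses, was 0.62 for nAChRalpha1 and nAChRalpha5 in LC4 at 48 h (319 cells). It was 0.56 for nAChRalpha5 and nAChRalpha7 in LC4 at 96 h (186 cells), and 0.51 for nAChRalpha5 and nAChRalpha6 in LPLC2 at 72 h (851 cells). The lowest were -0.37 and -0.28 for nAChRalpha2 and nAChRalpha7 in LPLC1 at 96 and 72 h (177 and 563 cells). Cells of a cross share a library and are not replicates, and the median over all 405 pairs of subunits by type and stage was 0.07.

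Strain differences were called for nAChRalpha1, which lies on the chromosome that differed, and for nAChRalpha5, which does not. An F test of strain over all groups (edgeR's quasi-likelihood test) called 2 of the 10 subunits, where 12.8% of all genes were called. nAChRalpha1 differed by 0.41 between the highest and lowest strain on the log2 scale (adjusted p = 6.9e-06), and strain 805 and strain 320 were the lowest, with 17.7 TP10K in strain 805, against 21.6 to 26.2 in the other 5 crosses of LPLC2 at 48 h. nAChRalpha5 had a range of 0.65 (adjusted p = 0.032), which was 0.28 without strain 555 (adjusted p = 0.21), a strain that occurred at 48 h only. Its call was also lost without strain 730, 799 or 805, with ranges of 0.62, 0.60 and 0.61 (adjusted p = 0.066, 0.059 and 0.12). In LPLC1 at 48 h strain 555 had 40.7 TP10K of nAChRalpha5, against 15.3 to 27.8 in the other 5 crosses.

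Strain also carries the collection window, since some strains were collected about 2 h older than the others, and the effects of strain and window cannot be told apart. At 48 h the older crosses (399, 535 and 555) did not overlap the younger ones (730, 799 and 805) for 4 subunits in LPLC2, 3 in LPLC1 and 2 in LC4, where 19.7%, 20.4% and 21.6% of all genes did not overlap. All 9 of these differences were higher in the older crosses. The shares of all genes count both directions, and the share higher in the older crosses was not taken, so the common direction has no background here. nAChRalpha6 in LC4 had 3.07, 3.23 and 4.86 TP10K in the older crosses and 1.71, 1.49 and 1.56 in the younger, a ratio of means of 2.35, and the 72 h level was higher still. Of these older LC4 crosses, strains 399 and 555 had only 14 and 12 cells, against 70 to 121 in the younger, so the ratio is not firm. nAChRalpha5 in LPLC1 had 22.1, 27.8 and 40.7 TP10K in the older crosses and 18.8, 16.6 and 15.3 in the younger. In LPLC2 at 48 h nAChRalpha1 averaged 24.5 TP10K in the older and 20.6 in the younger crosses, and nAChRalpha7 24.5 and 20.8, although both were lower at 72 h, at 17.2 and 11.9. At 72 h in LPLC2 the order was the reverse for nAChRalpha5, with 28.6, 34.5 and 32.6 TP10K in the older crosses and 41.2, 38.3 and 40.8 in the younger, the 1 subunit of 10 without overlap where 20.5% of genes had none. In LPLC2 at 96 h 4 subunits did not overlap (18.9% of genes), and in LPLC1 1 at 72 h (13.6%) and 2 at 96 h (18.7%). With 3 crosses against 3 no exact test can go below 0.10, and none was made.

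The other cholinergic genes listed, 15 in number, of which 14 were tested, moved with stage in 2 directions. Of the 14, 9 were higher and 4 lower at 72 h in LPLC2, 9 and 2 in LPLC1, and 9 and 5 in LC4, where 36.2% and 35.8%, 32.9% and 30.7%, and 31.2% and 30.8% of all genes were called higher and lower. At the second step 4 were higher and 9 lower in LPLC2 (all genes 28.8% and 25.7%), 1 and 8 in LPLC1 (22.1% and 26.7%), and 4 and 5 in LC4 (20.4% and 25.6%). The genes that make and load acetylcholine rose to 72 h, with ChAT, the synthetic enzyme, at 0.673, 3.02 and 5.23 TP10K in LPLC2 at 48, 72 and 96 h, and VAChT, the vesicular transporter, at 3.53, 10.9 and 15.1. Hasp, a protein of the cholinergic synaptic cleft, rose at both steps in each type, and in LPLC2 had 0.859 ± 0.22, 13.9 ± 2.3 and 45.5 ± 3.1 TP10K. CG13920, the gene of NACHO, a receptor assembly factor known from mammals, fell at both steps in each type, to 1.91 TP10K at 96 h in LPLC2, against 7.65 at 48 h, while RIC-3, another assembly factor, stayed between 1.05 and 1.43 TP10K in all groups. mAChR-A, a muscarinic receptor, was at 2.29, 1.47 and 1.28 TP10K in LPLC2.

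Over the means of the 9 groups of type and stage, the genes with the most similar pattern among 2209 were found by Pearson correlation on the log2 scale, as a description. nAChRalpha3 was most like AstC (r = 0.97), rdgA and par-1, and nAChRalpha7 was most like Rdl (0.95), klu and GABA-B-R1. nAChRalpha6 was most like Spn (0.94), beat-IIa and CG2082, and nAChRalpha5 most like CG32547 (0.94), CG9170 and CG15765. nAChRalpha1 was most like CG3638 (0.93), nAChRalpha2 Pde9 (0.95), nAChRalpha4 HmgZ (0.95), nAChRbeta1 bun (0.94) and nAChRbeta2 RpL34b (0.95). All 9 points come from 3 libraries.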

How the data were processed

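Single-cell RNA was measured in sorted neurons at 3 stages, 1 10x 3′ (v3.1) library per stage. The deposited tables hold whole-number UMI counts per gene and barcode, which the authors made with Cell Ranger on dm6 (FlyBase annotation), with strains called by demuxlet and doublets marked there, and cells clustered and annotated with Seurat 5.0.1. Whether intronic reads were counted is not given in the sources used here. The libraries were sequenced with other read lengths at 48 h than at 72 and 96 h. The deposited cell tables also give mitochondrial percent, and 309, 326 and 181 of the final cells at 48, 72 and 96 h lie outside the stated filter (10000 to 50000 UMIs, at most 10 percent mitochondrial); all annotated cells were kept.

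Counts were summed per cross with at least 10 cells (50 crosses) and fitted in 1 model over 9 groups with edgeR 4.0.16 (TMM, filterByExpr, quasi-likelihood; threshold adjusted p 0.05) in R 4.3.3. TP10K is a gene's UMIs per 10000 UMIs of the cross. Position scores follow the study's principal component analysis (500 variable genes, scaled values limited to 10), and cells of a cross were divided into 3 groups. Cells were thinned to 10000 UMIs for shares and spread. Tests were tried on simulated counts of these crosses. Members and lists were chosen with earlier results of these data known, and the gradient change between stages, the subunit shares, the collection windows and the scaling by library totals were added after seeing the data. Named genes were the 10 members, the cholinergic list, 3 genes of most similar pattern per member and the gradient anchors. Alternatives were DESeq2 1.42.0 size factors and Wald test, no filter, a strain block, the stated cell filter, thinned cells, at least 30 cells per cross and leaving out each strain. Animals of a cross were pooled, their number is not given in the sources used here, and p-values measure the spread between crosses.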

Additional observations from a re-analysis of the deposited data

Results flagged for a closer look

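Of the 88 sets of crosses checked for 1 cross far from the others (1 subunit, type and stage each), 8 had one. How many chance would give was not tested. At 48 h the LC4 cross of strain 555, with 12 cells, was lowest for 3 subunits: nAChRalpha2 at 1.59 TP10K (others 2.06 to 2.26), nAChRalpha4 at 1.93 (others 2.75 to 3.20) and nAChRbeta2 at 1.96 (others 2.32 to 2.49). nAChRalpha3 in LPLC1 at 72 h was lowest in strain 805, at 4.47 TP10K (others 5.68 to 6.26), and nAChRbeta2 in LPLC2 at 72 h in strain 799, at 1.71 (others 2.02 to 2.20). nAChRalpha4 in LPLC2 at 96 h was highest in strain 535, at 4.85 TP10K (others 3.82 to 4.17). nAChRbeta3 at 48 h was above 0 in a single LPLC1 cross, strain 555 at 0.00316 TP10K, and a single LC4 cross, strain 805 at 0.0124.

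The change between stages differed between types for 29 of 60 tested pairs of subunit and contrast (interaction terms of edgeR's quasi-likelihood test), where 11.2% to 32.3% of all genes were called per contrast, and the values are differences of log2 fold changes. At 72 over 48 h, LPLC2 minus LPLC1 was -1.28 for nAChRalpha1, -0.70 for nAChRalpha2, 0.99 for nAChRalpha3, -1.72 for nAChRalpha6, -1.34 for nAChRalpha7, -0.57 for nAChRbeta1 and -0.38 for nAChRbeta2. LPLC2 minus LC4 was 1.07 for nAChRalpha3, 0.996 for nAChRalpha5, -1.19 for nAChRalpha6, -1.36 for nAChRalpha7 and -0.34 for nAChRbeta1, the last lost without strain 399 or 805. It was 6.86 for nAChRbeta3, a value that rests on 1 LC4 cross at 48 h and was 4.54 without strain 805 (adjusted p = 1.0). LPLC1 minus LC4 was 1.21 for nAChRalpha1, 0.65 for nAChRalpha2 and 0.94 for nAChRalpha5.

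At 96 over 72 h, LPLC2 minus LPLC1 was 0.63 for nAChRalpha1 and -0.86 for nAChRalpha5. LPLC2 minus LC4 was -2.94 for nAChRalpha5, 1.58 for nAChRalpha6, 0.66 for nAChRalpha7, -0.46 for nAChRbeta1 and -0.80 for nAChRbeta2. LPLC1 minus LC4 was -2.07 for nAChRalpha5, 2.10 for nAChRalpha6, -0.74 for nAChRbeta1 and -0.54 for nAChRbeta2. It was also -0.59 for nAChRalpha3, lost under 5 other settings and without any 1 of 6 strains, and 0.44 for nAChRalpha7, lost without strain 399, 535, 799 or 805.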

How the results depend on the processing

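Of 114 called contrasts, 112 kept their call with DESeq2 size factors, 114 with the DESeq2 Wald test, 106 without a filter on low counts, 111 under the stated cell filter and 112 with at least 30 cells per cross, as did 104 of 108 in thinned cells. None reversed. Scaling by library totals alone, chosen after seeing the data, kept 108 and moved the share of higher among called genes at 96 over 72 h to 65.4% from 52.9% in LPLC2, to 64.3% from 45.3% in LPLC1 and to 54.6% from 44.3% in LC4. The other such shifts were 41.6% from 51.8% (LPLC1, 72 over 48 h), 60.2% from 49.6% (LPLC1 over LC4, 48 h), 57.6% from 46.6% (LPLC2 over LPLC1, 72 h) and 61.1% from 48.6% (LPLC1 over LC4, 96 h).

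Strain as a replicate block changed no call (114 of 114 contrasts and 29 of 29 interactions). Crosses of 1 strain and stage deviated together weakly (46 pairs, median r = 0.14, lowest 0.043). In the gradients, dropping the replicate block left 2 called subunits in LPLC1 at 48 h in place of 6, and thinned cells left 2 at 72 h in place of 4.

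With 1 strain left out, the gradient of nAChRalpha4 in LPLC2 at 48 h ranged from -0.18 (without strain 730) to 0.41, and that of nAChRalpha1 in LPLC1 at 48 h from -0.31 to 0.52, reversed at 0.055, 0.016 and 0.52 without strains 730, 799 and 805. The count of called subunits ranged from 3 to 5 for LPLC1 minus LC4 at 72 over 48 h, from 1 to 4 for strain, and from 1 to 4 and from 3 to 5 for the change of the LPLC1 gradient at 72 over 48 h and 96 over 72 h. Without a filter, strain was called for 5 subunits.

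Shares of cells follow depth. At 5000 UMIs per cell nAChRbeta3 was found in 1.21% of LPLC2 cells at 72 h, nAChRalpha6 in 50.4%, 89.6% and 48.0% of LC4 cells at 48, 72 and 96 h, and nAChRalpha5 and nAChRbeta2 in 83.5% and 45.2% of LPLC2 cells at 96 h. Unthinned, nAChRalpha6 was found in 98.7% and 76.9% of LC4 cells at 72 and 96 h and nAChRbeta2 in 80.8% of LPLC2 cells at 96 h. At 5000 UMIs the spread in LPLC2 was 0.17 for nAChRalpha1 and 0.25 for nAChRalpha6 at 48 h, and 0.44 for nAChRalpha5 and 0.55 for nAChRalpha6 at 72 h, and in LC4 1.01 for nAChRalpha6 at 72 h. The cause of these shifts other than depth was not tested.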
